A study of Homo sapiens with 8 samples.

Results

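The genes described here encode nucleolar factors that build ribosomes: the small-subunit processome, the core proteins of the box C/D and box H/ACA small nucleolar ribonucleoproteins (snoRNPs), large-subunit assembly factors, abundant nucleolar proteins, and RNA polymerase I with its initiation factors. They were taken from a fixed list of 51 genes, as all probe sets whose platform annotation names 1 listed gene and no other, whatever their values. The list itself, like the lists of related genes below, was chosen with earlier results of these data known. Its counts are therefore a description. Of the 51 genes, 50 had such a probe set (123 probe sets, of 44988 with a single gene symbol on the array and 18132 genes in all), and PWP2 had none and was not analysed here. All 50 were kept in both comparisons, by a limit on dim probe sets applied to the mean over each set of arrays (log2 5.63 in the USF1 arrays, 4.76 in the UGT1A3 arrays). UTP14A was kept only through its brighter group, the controls in the USF1 arrays and the knockdown array in the UGT1A3 pair.

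H1299 is a cell line derived from a non-small cell lung carcinoma, and its RNA was measured on 8 one-colour Affymetrix arrays. USF1 knockdown cells (3 arrays), transfected with short hairpin RNA (shRNA) against the E-box-binding transcription factor USF1, were set against the controls of that knockdown (3 arrays). UGT1A3 knockdown cells (1 array), transfected with shRNA against the UDP-glucuronosyltransferase UGT1A3, were set against the control of that knockdown (1 array). The labels do not say what the controls were transfected with, how many shRNA sequences were used or how long after transfection the cells were taken, and nothing in them says that replicates came from separate cultures. The p-values thus reflect the variation among these arrays alone, and that variation may be technical.

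Ribosomes are assembled in the nucleolus. RNA polymerase I makes a long precursor, and the small-subunit processome, organised around the U3 snoRNP, folds and cuts it to release the RNA of the small subunit, while other factors assemble the large subunit. Box C/D and box H/ACA snoRNPs methylate and pseudouridylate the RNA. In many tumour cells these genes are driven by MYC, which binds the same E-box sequence, CACGTG, as USF1.

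The median log2 intensity was 6.53 to 6.55 on the USF1 knockdown arrays and 6.53 to 6.55 on their controls, and 5.63 and 5.59 on the UGT1A3 knockdown and control arrays, so no level was compared between the sets. The USF1 transcript read 6.06, 5.88 and 6.13 in the knockdown arrays, against 6.31, 6.55 and 6.42 in the controls, and the knockdown arrays all lay below the controls (log2 difference -0.40, SE 0.08, 75.6% of control, limma adjusted p = 0.00818). The 9 probe sets naming UGT1A3 all name other genes too and were all dim, so the UGT1A3 knockdown could not be checked. Of 7 markers of H1299 and carcinoma cells 5 were bright, among them VIM and KRT18, and 2 of these rose after USF1 knockdown, whereas KRT19 and EPCAM were dim. The summed intensity of 16 markers of other cell types was 1323 to 1384 in USF1 knockdown arrays and 1365 to 1387 in their controls. Of the 16, 7 were above the dim limit (CD68, AGER, SFTPC, HBB, PDGFRB, PECAM1 and VWF), and none of these passed the test. CD68 was the brightest, at a mean of 9.37 in the knockdown arrays and 9.46 in the controls, and weighs most in the sum. The rest, PTPRC, CD14, DCN and ALB among them, were below the limit. The arrays give each transcript relative to the rest of its array, so less of these RNAs in each cell and fewer cells holding them cannot be told apart.

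The nucleolar factors were lower after USF1 knockdown. Of the 50 genes measured, 32 fell, none rose and 18 did not pass an adjusted p of 0.05 (limma, knockdown minus control on the log2 scale, Benjamini-Hochberg adjustment over 11448 genes), whereas 40.7% of all genes tested passed, 18.7% falling and 22.0% rising. The median log2 difference of the 50 was -0.185, or 88.0% of the control level, beside 0.01 over all genes tested. In 37 of the 50 every knockdown array lay below every control, which held for 24.6% of all genes, and in none did every knockdown array lie above them, which held for 29.0%. The 32 and the 37 include UTP14A, whose knockdown mean lay under the dim limit. The falls were small, with the exception of IMP4. With each gene read on its brightest probe set, IMP4 fell by 1.24, the next largest fall was that of UTP20 at 0.51, and 1 gene was at least 1.5-fold lower, as were 1.19% of all genes. A dimmer probe set of UTP15 also passed this size, at -0.65. Without IMP4 the median was -0.18.

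**Figure D1:**
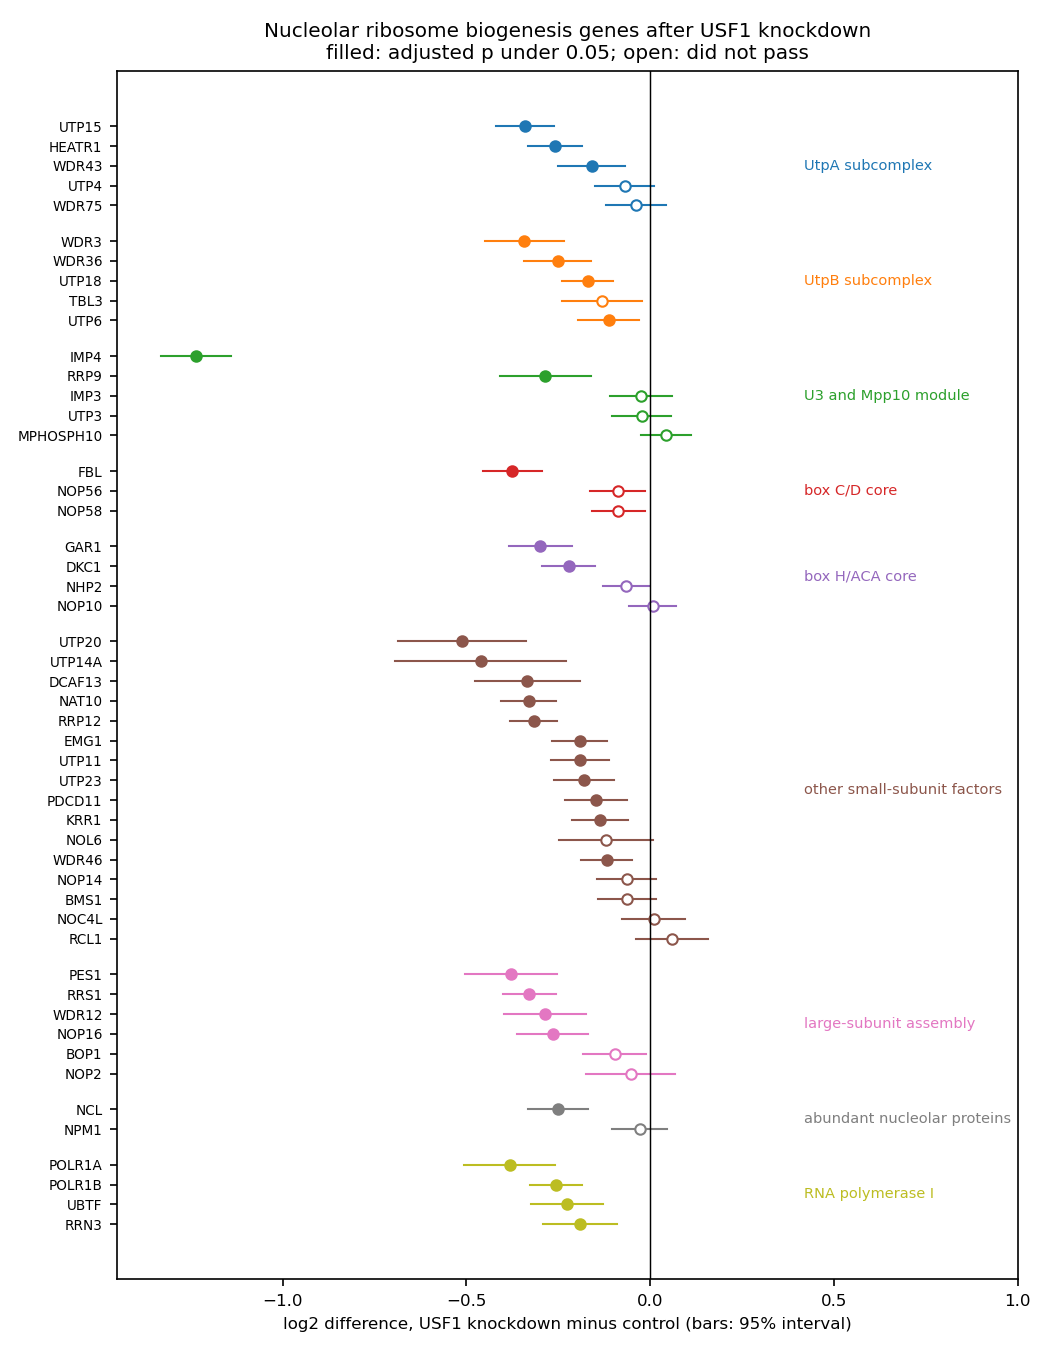
Log2 difference (x axis, USF1 knockdown minus control, n = 3 arrays each) of each of the 50 measured nucleolar factors (rows), grouped by role. Points are the limma estimates, bars their 95% intervals, filled points passed an adjusted p of 0.05; the 32 filled points all lie left of 0 and IMP4 stands apart at -1.24.

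USF1 binds the palindrome CACGTG, so this hexamer was looked for in windows from 250 bases before to 50 bases after the annotated gene start (RefSeq, GRCh38.p14), both strands being read at once. A window was held for 44 of the 51 genes, and 18 of these (40.9%) had at least 1 CACGTG, against 8.77% of 27305 genes of all kinds and 13.0% of the 9443 genes with a window that were tested in the USF1 comparison. Among the measured factors 11 of the 28 that fell (39.3%) and 6 of the 15 that did not pass had the hexamer, and the median log2 difference was -0.17 with it (n = 17) and -0.19 without it (n = 26). These shares and medians of the factors lay close together. Over all tested genes with a window, 15.7% of those that fell, 13.4% of those that rose and 11.9% of those that did not pass had the hexamer. Among related genes described below, it was in 41.4% of 29 further small-subunit factors and 31.9% of 47 further large-subunit factors, and in 6.78% of 59 ribosomal protein genes. It was also in 33.3% of 9 RNA polymerase III genes, 27.3% of 11 E-box regulators and 14.3% of 21 genes of RNA-processing nucleases. The share was 10.0% of 10 further RNA polymerase I genes and 0% of 7 genes of snoRNP assembly. The hexamer was absent from the windows of all 4 RNA polymerase I genes and of NCL and NPM1. Of these, POLR1A, POLR1B, RRN3 and NCL fell, NPM1 did not pass, and UBTF fell on its brightest probe set while another rose. A match is a description of the letters and not a binding site. The windows of the 3 genes with 2 copies, namely IMP4 and UTP18, which fell, and NOP10, which did not pass, are shown with those of FBL and NAT10, which had 1 copy and fell; CACGTG is in capitals.
IMP4, chr2:130342647-130342946, plus strand: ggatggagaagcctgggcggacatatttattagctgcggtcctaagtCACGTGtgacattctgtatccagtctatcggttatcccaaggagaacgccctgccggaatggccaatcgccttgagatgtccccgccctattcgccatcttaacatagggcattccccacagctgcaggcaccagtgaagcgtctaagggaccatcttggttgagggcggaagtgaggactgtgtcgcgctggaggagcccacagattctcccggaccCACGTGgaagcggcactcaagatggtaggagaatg
UTP18, chr17:51260296-51260595, plus strand: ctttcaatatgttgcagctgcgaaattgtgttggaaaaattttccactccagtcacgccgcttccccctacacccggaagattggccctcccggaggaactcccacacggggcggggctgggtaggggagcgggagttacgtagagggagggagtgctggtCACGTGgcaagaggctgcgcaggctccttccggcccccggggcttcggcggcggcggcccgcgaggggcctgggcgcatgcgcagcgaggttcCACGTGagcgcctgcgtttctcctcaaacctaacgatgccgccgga
NOP10, chr15:34343087-34343386, minus strand: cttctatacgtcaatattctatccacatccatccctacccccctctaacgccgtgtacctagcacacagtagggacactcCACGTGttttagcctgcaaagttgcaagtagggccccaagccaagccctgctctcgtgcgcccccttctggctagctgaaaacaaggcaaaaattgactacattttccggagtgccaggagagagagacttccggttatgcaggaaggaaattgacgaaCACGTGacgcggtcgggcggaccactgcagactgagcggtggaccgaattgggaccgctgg
FBL, chr19:39846330-39846629, minus strand: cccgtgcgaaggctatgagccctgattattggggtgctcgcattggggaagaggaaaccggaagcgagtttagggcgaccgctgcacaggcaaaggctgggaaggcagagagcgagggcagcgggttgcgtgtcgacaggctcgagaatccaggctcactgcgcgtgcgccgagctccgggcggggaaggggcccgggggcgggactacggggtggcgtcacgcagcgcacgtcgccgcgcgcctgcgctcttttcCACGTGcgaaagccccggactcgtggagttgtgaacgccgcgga
NAT10, chr11:34105379-34105678, plus strand: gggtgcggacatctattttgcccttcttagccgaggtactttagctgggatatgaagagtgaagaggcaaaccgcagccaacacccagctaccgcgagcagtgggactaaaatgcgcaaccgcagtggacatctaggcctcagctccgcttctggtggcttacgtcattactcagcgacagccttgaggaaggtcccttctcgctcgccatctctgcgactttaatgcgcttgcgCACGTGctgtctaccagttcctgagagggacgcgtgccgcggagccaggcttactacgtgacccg
With the annotated gene start of each printed window counted as 0, the copies begin at -203 and 15 in IMP4, at -89 and 4 in UTP18 and at -170 and -11 in NOP10. The single copy begins at 6 in FBL and at -15 in NAT10. A gene with several annotated starts was counted by its window with the most copies, here and over all genes. IMP4 has another window, chr2:130343020-130343319, with no copy, and GAR1 likewise has a window with the hexamer and another without it.

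The UtpA subcomplex binds the start of the precursor first and in human cells is linked to transcription by RNA polymerase I. Of its 5 listed genes 3 fell and none rose. UTP15 read 8.54, 8.60 and 8.50 in the knockdown arrays, against 8.89, 8.89 and 8.88 in the controls, and fell by 0.34 (SE 0.03, limma adjusted p = 4.74e-04). HEATR1, a large helical-repeat scaffold, read 10.36, 10.39 and 10.33 in the knockdown arrays, against 10.59, 10.64 and 10.63 in the controls (-0.26, SE 0.03, adjusted p = 9.65e-04). WDR43 read 9.14, 9.06 and 9.08 in the knockdown arrays, against 9.21, 9.25 and 9.30 in the controls, and fell by 0.16 (SE 0.04, adjusted p = 0.0149). The groups did not overlap for any of these 3. UTP4 differed by -0.07 and WDR75 by -0.04, neither passing.

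In the UtpB subcomplex, which joins after UtpA, 4 of 5 measured genes fell and all 5 had their knockdown arrays below their controls. WDR3 read 8.93, 9.005 and 8.84 in the knockdown arrays, against 9.27, 9.24 and 9.30 in the controls, and fell by 0.34 (SE 0.05, limma adjusted p = 0.00143). WDR36 read 10.28, 10.16 and 10.24 in the knockdown arrays, against 10.46, 10.50 and 10.47 in the controls (-0.25, SE 0.04, adjusted p = 0.00263). UTP18 read 11.30, 11.30 and 11.32 in the knockdown arrays, against 11.44, 11.50 and 11.47 in the controls (-0.17, SE 0.03, adjusted p = 0.00381). All 3 are WD-repeat proteins, the fold that most of this subcomplex shares. UTP6 fell by 0.11 (adjusted p = 0.0402, and 0.0702 to 0.121 in 8 of the alternatives), and TBL3 differed by -0.13 (95% interval -0.24 to -0.02, adjusted p = 0.0572).

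IMP4, which with IMP3 and MPHOSPH10 forms the Mpp10 complex and binds the U3 small nucleolar RNA, gave the largest change of the factors and the eighth largest fall (rank 8) of the 11448 genes. Its single probe set read 9.73, 9.63 and 9.60 in the knockdown arrays, against 10.87, 10.89 and 10.90 in the controls, which is 42.5% of the control level (-1.24, SE 0.04, limma adjusted p = 1.51e-05). Its partners in the complex did not pass. MPHOSPH10 read 10.29, 10.29 and 10.25 in the knockdown arrays, against 10.22, 10.22 and 10.25 in the controls (0.04, 95% interval -0.03 to 0.11, adjusted p = 0.279), and IMP3 differed by -0.02 (95% interval -0.11 to 0.06). Both intervals end far short of the IMP4 fall. UTP3, the processome protein known in yeast as Sas10, differed by -0.02. RRP9, the U3-specific protein of the snoRNP, read 7.80, 7.90 and 7.91 in the knockdown arrays, against 8.09, 8.13 and 8.25 in the controls, and fell by 0.28 (SE 0.05, adjusted p = 0.00529).

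Among the box C/D core proteins fibrillarin (FBL), the methyltransferase, fell while its scaffold partners did not pass on their brightest probe sets. FBL, an abundant transcript, read 13.29, 13.30 and 13.26 in the knockdown arrays, against 13.61, 13.70 and 13.65 in the controls, and fell by 0.37 (SE 0.03, limma adjusted p = 3.34e-04). NOP58 read 12.04, 12.08 and 12.10 in the knockdown arrays, against 12.18, 12.13 and 12.17 in the controls (-0.09, 95% interval -0.16 to -0.01, adjusted p = 0.0578). NOP56 read 12.75, 12.70 and 12.75 in the knockdown arrays, against 12.81, 12.80 and 12.86 in the controls (-0.09, 95% interval -0.16 to -0.01, adjusted p = 0.0642). The knockdown arrays lay below the controls for all 3 genes, and both partners passed in 3 of the alternatives each. With probe sets tested singly, 2 of the 4 bright ones of NOP56 fell, and all 4 were below 0.

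Of the 4 box H/ACA core proteins, which also serve the telomerase ribonucleoprotein, 2 fell. GAR1 read 10.12, 10.13 and 10.15 in the knockdown arrays, against 10.42, 10.39 and 10.49 in the controls (-0.30, SE 0.04, limma adjusted p = 0.00102). Dyskerin (DKC1), the pseudouridine synthase, read 11.63, 11.61 and 11.64 in the knockdown arrays, against 11.82, 11.83 and 11.89 in the controls (-0.22, SE 0.03, adjusted p = 0.00159). NHP2 read 12.76, 12.74 and 12.73 in the knockdown arrays, against 12.80, 12.81 and 12.82 in the controls (-0.07, SE 0.03, adjusted p = 0.089). The groups were apart for these 3, whereas those of NOP10 overlapped at 0.01 (95% interval -0.06 to 0.07, adjusted p = 0.87).

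Of the other 16 small-subunit factors 11 fell and none rose. RRP12, a helical-repeat protein of late small-subunit maturation, read 9.58, 9.54 and 9.55 in the knockdown arrays, against 9.87, 9.87 and 9.88 in the controls (-0.32, SE 0.03, limma adjusted p = 2.72e-04). NAT10, the acetyltransferase of small-subunit RNA, read 9.49, 9.46 and 9.46 in the knockdown arrays, against 9.78, 9.84 and 9.77 in the controls (-0.33, SE 0.03, adjusted p = 4.14e-04). UTP20 read 7.53, 7.64 and 7.36 in the knockdown arrays, against 7.999, 8.09 and 7.97 in the controls, and fell by 0.51 (SE 0.07, adjusted p = 0.00195). In each the knockdown arrays were the 3 lowest. The fall of UTP14A, 0.46 as measured (adjusted p = 0.00949), was on a probe set close to the dim limit of 5.63. Its knockdown mean of 5.48 lay under that limit, and counted from the limit the difference was -0.31. DCAF13 fell by 0.33, the methyltransferase EMG1 and UTP11 by 0.19 each, UTP23 by 0.18, PDCD11, which acts in both subunits, by 0.15, KRR1 by 0.14 and WDR46 by 0.12. Another probe set of DCAF13, of similar brightness, differed by -0.14 and did not pass (limma on single probe sets, adjusted p = 0.0507). The 5 genes that did not pass were NOL6 (-0.12), NOP14 (-0.06) and its partner NOC4L (0.01), the GTPase BMS1 (-0.06) and RCL1 (0.06).

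Of the 6 large-subunit assembly factors 4 fell. RRS1, which helps bring the small ribosomal RNA of the large subunit into the particle, read 11.05, 11.05 and 11.02 in the knockdown arrays, against 11.35, 11.35 and 11.41 in the controls (-0.33, SE 0.03, limma adjusted p = 3.70e-04). PES1 read 9.43, 9.36 and 9.24 in the knockdown arrays, against 9.68, 9.77 and 9.72 in the controls (-0.38, SE 0.05, adjusted p = 0.00175). NOP16 read 10.88, 10.75 and 10.82 in the knockdown arrays, against 11.06, 11.08 and 11.10 in the controls (-0.27, SE 0.04, adjusted p = 0.00247). PES1 forms the PeBoW complex with BOP1 and WDR12, whose changes were unequal. WDR12 fell by 0.29 (adjusted p = 0.00341), whereas BOP1 read 10.36, 10.27 and 10.32 in the knockdown arrays, against 10.40, 10.46 and 10.38 in the controls (-0.10, SE 0.04, adjusted p = 0.0716). The methyltransferase NOP2 differed by -0.05 and did not pass.

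Nucleolin (NCL), an RNA-binding protein of the nucleolus, read 12.75, 12.82 and 12.84 in the knockdown arrays, against 13.05, 13.03 and 13.08 in the controls, and fell by 0.25 (SE 0.03, limma adjusted p = 0.00159). Nucleophosmin (NPM1), the brightest of the factors, read 14.48, 14.45 and 14.53 in the knockdown arrays, against 14.52, 14.53 and 14.50 in the controls (-0.03, 95% interval -0.10 to 0.05, adjusted p = 0.518). The groups were apart for NCL and overlapped for NPM1, whose signal lies near the top of the scale and whose probe sets may also read its processed pseudogenes.

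All 4 genes of the RNA polymerase I group fell in the gene-level test. POLR1B, the second-largest subunit, read 9.61, 9.66 and 9.62 in the knockdown arrays, against 9.86, 9.88 and 9.91 in the controls (-0.26, SE 0.03, limma adjusted p = 8.76e-04). POLR1A, the largest subunit, read 8.02, 8.04 and 8.16 in the knockdown arrays, against 8.52, 8.39 and 8.46 in the controls (-0.38, SE 0.05, adjusted p = 0.00159). UBTF, which binds the ribosomal DNA promoter, read 7.90, 7.89 and 7.91 in the knockdown arrays, against 8.20, 8.05 and 8.13 in the controls (-0.23, SE 0.04, adjusted p = 0.00517). These values of UBTF are of 1 of its 4 bright probe sets, and the other 3 pointed upward. RRN3, which recruits the polymerase, fell by 0.19 (adjusted p = 0.0119), and its other 2 bright probe sets, at -0.09 and -0.05, did not pass.

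**Figure D2:**
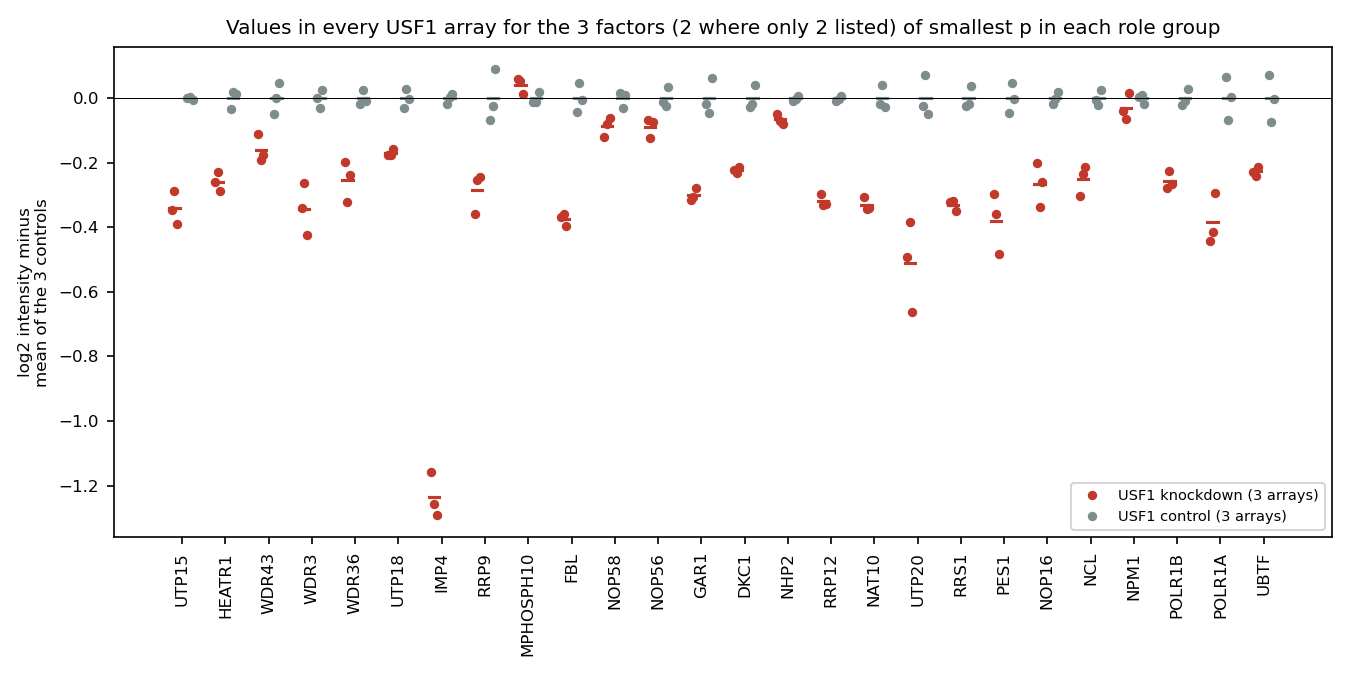
Log2 intensity minus the mean of the 3 controls (y axis) for the factors of smallest p in each role group (x axis), with USF1 knockdown arrays left and red and controls right and grey. Dots are single arrays and bars group means; in all genes drawn except MPHOSPH10 and NPM1 the 3 knockdown arrays lie below the 3 controls.

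Probe sets of the same gene were also tested singly. Of the 123 probe sets 114 were above the dim limit, and of these 65 fell, 1 rose and 48 did not pass (limma, adjusted over 27182 bright probe sets, of which 17.6% fell and 20.0% rose). Of 36 genes with more than 1 bright probe set, 33 had all of them below 0, in 15 all of them fell, and 3 had both signs, namely UBTF, IMP3 and UTP3. The matching shares over all genes are not given here, so these gene counts describe the factors alone. The range between probe sets of a gene had a median of 0.07. The widest was that of UBTF, where a probe set that rose by 0.17 (adjusted p = 0.0345) stood beside the one that fell by 0.23, and the others differed by 0.12 and 0.24. All 6 probe sets of POLR1B fell, by 0.21 to 0.31, as did the 3 of NAT10, by 0.33 to 0.37, and the 3 of UTP15, by 0.31 to 0.65. For NOL6 the brightest probe set did not pass while the other 4 bright ones fell, by 0.26 to 0.33. In 14 genes, IMP4, FBL, RRS1, PES1 and UTP20 among them, the values rest on a single bright probe set. Of the 123 probe sets 44 carry a suffix (s_at or x_at) by which the manufacturer marks probes that can read several transcripts, and UTP14A, BMS1 and RRN3 have near-identical gene copies, so their values are uncertain in that respect.

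**Figure D3:**
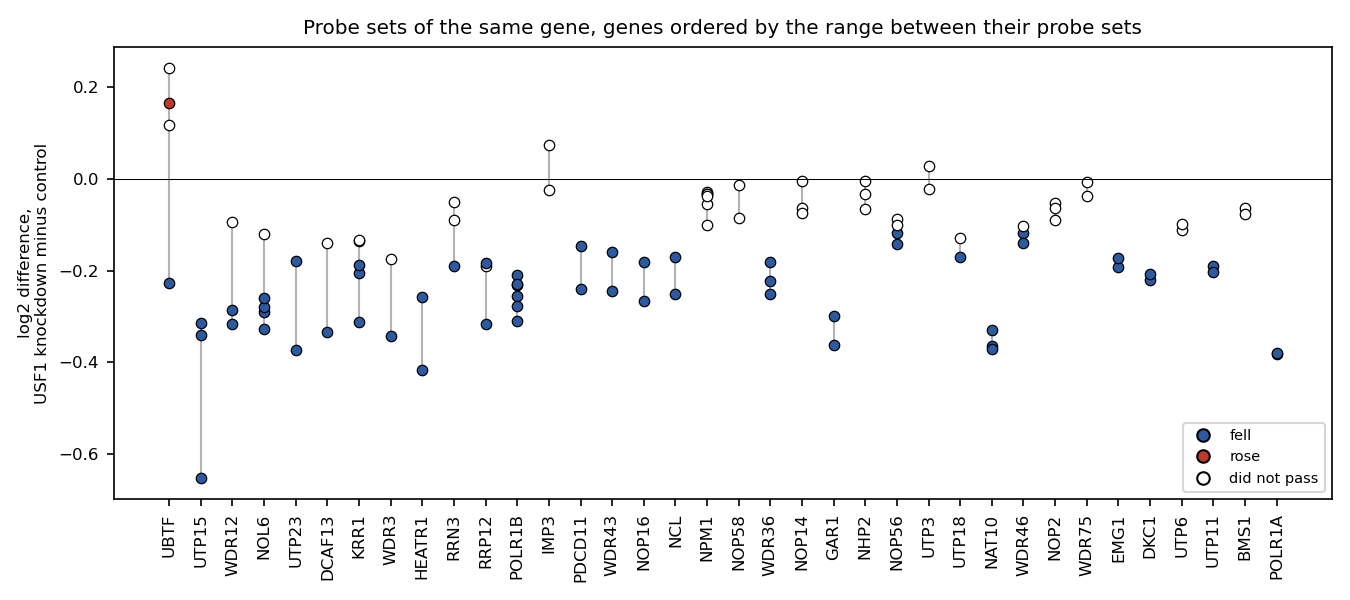
Log2 difference (y axis, USF1 knockdown minus control, n = 3 arrays each) of every bright probe set of the 36 genes with more than 1, ordered along the x axis by the range between probe sets. Blue points fell, red rose and open points did not pass; UBTF alone holds probe sets that passed in both directions.

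Other genes of ribosome production, listed by role, were read from the same fit, and each count stands against the 18.7% of all genes that fell and the 22.0% that rose. Of 49 further large-subunit factors 30 fell and 3 rose, with a median of -0.14. The helicase DDX54 fell by 0.77 (SE 0.03, limma adjusted p = 2.12e-05), the large AAA-type ATPase MDN1 by 0.46, the methyltransferase FTSJ3 by 0.31 and NOC3L by 0.31. Of 31 further small-subunit factors 13 fell and 1 rose, with a median of -0.10. NOL10 fell by 0.59, the kinase RIOK1 by 0.47 and the helicase DDX10 by 0.35, whereas RRP36 rose by 0.34 (SE 0.03, adjusted p = 3.24e-04). Of 11 further RNA polymerase I genes 5 fell and none rose, with TAF1A, a subunit of the promoter selectivity factor, at -0.53, the shared subunit POLR1C at -0.16, POLR1F at -0.13 and the termination factor TTF1 at -0.12.

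Genes that assemble snoRNPs or trim the RNA gave calls in both directions. Of 12 genes of snoRNP assembly 3 fell and 1 rose: NOLC1, the chaperone Nopp140, fell by 0.20, its relative TCOF1 by 0.30 and RUVBL1 by 0.13, and PIH1D1 rose by 0.33. Of 23 genes of the exosome, RNase MRP and related nucleases 8 fell and 2 rose, among them the RNase MRP subunit POP5 (-0.70, SE 0.03, limma adjusted p = 3.31e-05), the exosome subunits EXOSC3 (-0.27) and EXOSC4 (0.34) and the exosome cofactor C1D (-0.29). Of 13 genes of RNA polymerase III and its factors 2 fell and 3 rose. CRCP was at -0.31, MAF1, the repressor of this polymerase, at 0.32, POLR3C at 0.18 and BRF2 at 0.11. Ribosomal proteins, the other protein arm of ribosome production, stood near 0: of 62 measured genes 3 fell, 1 rose and 58 did not pass, and their median was 0.01. RPS6 fell by 0.16, RPL27A by 0.15 and RPL26 by 0.11, and RPS27 rose by 0.08. Many ribosomal protein genes read near the top of the scale, as NPM1 did. RPS2, for example, had a mean of 14.80 in the knockdown arrays and 14.78 in the controls. Many of their probe sets also carry the s_at or x_at suffix. Their small differences may therefore be understated. Differences between these lists were not tested.

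**Figure D4:**
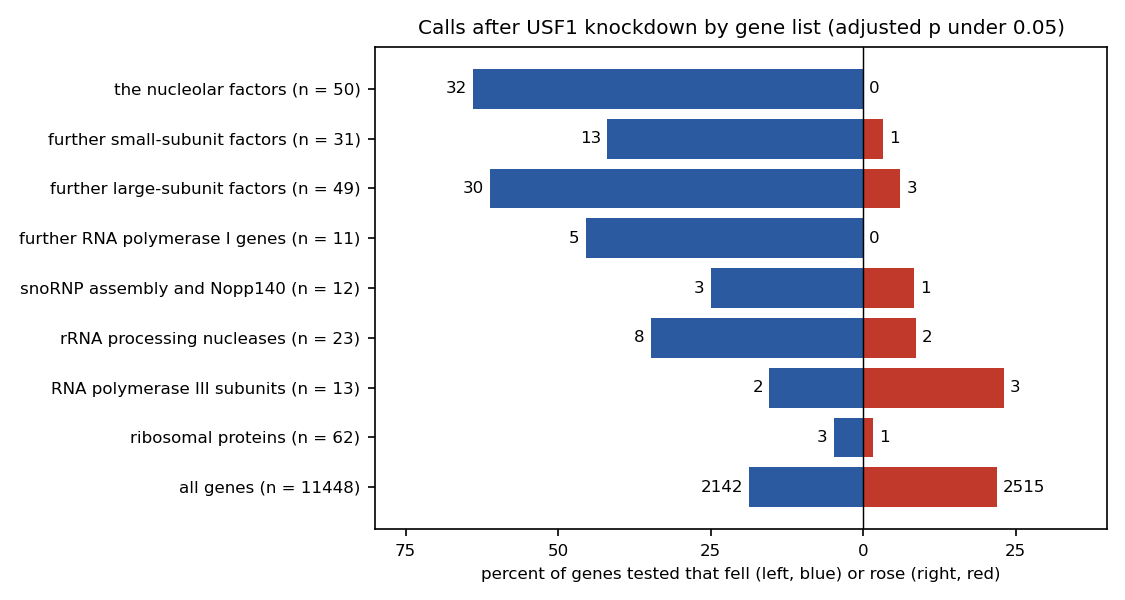
Percent of the genes tested (x axis) in each list (rows) that fell (blue, left) or rose (red, right) after USF1 knockdown at an adjusted p of 0.05, with the number of genes at each bar. The 50 nucleolar factors (32 fell, 0 rose) are at the top and all 11448 genes (2142 fell, 2515 rose) at the bottom. Of the 62 ribosomal protein genes, many of which read near the top of the scale, 3 fell and 1 rose.

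Of 11 E-box regulators measured in the same arrays 6 fell, USF1 itself among them, and 2 rose. MYC, a known activator of ribosome biogenesis genes, read 11.61, 11.63 and 11.61 in the USF1 knockdown arrays, against 11.99, 11.96 and 11.998 in the controls, and fell by 0.37 (SE 0.03, limma adjusted p = 1.64e-04). MXD4 read 9.28, 9.13 and 9.20 in the knockdown arrays, against 8.66, 8.82 and 8.69 in the controls, and rose by 0.48 (SE 0.06, adjusted p = 8.12e-04). The others that fell were MXI1 at -0.18, MLXIP at -0.16, MXD1 at -0.15 and MAX at -0.14, and MXD3 rose by 0.19. The groups were apart for MYC and MXD4. Their part in the falls of the nucleolar factors was not tested.

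In the UGT1A3 pair, with 1 array per group and so no replicate check and no p-value, the factors were also mostly lower in the knockdown array. Of the 50 genes 47 were lower and 3 higher, whereas 46.0% of the 11620 genes measured in this pair were lower, and their median difference was -0.20, or 86.8% of the control level, beside 0.02 over all genes. On the brightest probe set of each gene, BOP1 was the only factor at least 1.5-fold apart: it read 8.84 in the knockdown array and 9.47 in the control (-0.62). At this size 1.41% of all genes were lower and 2.15% higher. NOP56 read 11.25 in the knockdown array and 11.80 in the control (-0.55), and its 4 probe sets gave -0.56 to -0.55. NAT10 read 8.47 in the knockdown array and 9.01 in the control (-0.54), and a dimmer probe set of it differed by -0.63, past 1.5-fold. RRP12 read 8.14 in the knockdown array and 8.66 in the control (-0.52), and UTP20 6.39 in the knockdown array and 6.88 in the control (-0.48). IMP4 read 9.81 in the knockdown array and 10.06 in the control (-0.25). The 3 genes that read higher were NOP10 by 0.04, UBTF by 0.07 and UTP14A. UTP14A read 4.83 in the knockdown array and 4.73 in the control, which is under the dim limit of 4.76, so its difference has no firm size. UBTF read higher on its brightest probe set in this pair, whereas the probe set on which it fell after USF1 knockdown read 7.42 in the knockdown array and 7.74 in the control (-0.32).

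The large-subunit factors had a median of -0.33 in this pair and the 4 RNA polymerase I genes of -0.07, which became -0.16 when each gene was read on its probe set of the USF1 arrays. Of the 4 only UBTF had a different probe set there. POLR1A also depended on the probe set, at -0.03 on its brighter one and -0.42 on its dimmer one. For 6 genes, among them UBTF, the brightest probe set was not the one used in the USF1 arrays. Of the 12 E-box regulators measured in this pair 6 were lower and 6 higher, with a median of -0.01. MYC read 10.36 in the knockdown array and 10.67 in the control (-0.31). MXD4 read 8.23 in the knockdown array and 7.80 in the control (0.43). The part of MYC or MXD4 was not tested. USF1 itself read higher, at 4.98 in the knockdown array and 4.73 in the control. That control value is under the dim limit of 4.76, so the USF1 difference has no firm size. Ribosomal proteins had a median of 0.04, with 9 genes lower and 52 higher.

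Set side by side, 30 of the 32 factors that fell after USF1 knockdown were also lower in the UGT1A3 knockdown array, as were 17 of the 18 that did not pass. Among all genes measured in both, 52.1% of the 2112 that fell and 49.0% of the 6534 that did not pass were lower in the UGT1A3 knockdown array, and the genes that both fell and were lower made up 9.89% of all 11130. With every gene read on its probe set of the USF1 arrays, a choice made after seeing the data, 31 of the 32 and 17 of the 18 were lower, UBTF being the gene that turned. The sets have separate controls. The sizes differed by gene. IMP4 differed by -1.24 after USF1 knockdown and by -0.25 in the UGT1A3 pair, and FBL by -0.37 after USF1 knockdown and -0.11 in the UGT1A3 pair. For POLR1A the sizes rested on the probe set: the brighter one differed by -0.38 after USF1 knockdown and -0.03 in the UGT1A3 pair, and the dimmer one by -0.38 after USF1 knockdown and -0.42 in the UGT1A3 pair. BOP1 differed by -0.10 after USF1 knockdown and by -0.62 in the UGT1A3 pair, and NOP56 by -0.09 after USF1 knockdown and -0.55 in the UGT1A3 pair. NAT10, RRP12, UTP20 and WDR3 were lower by at least 0.3 in both, and the share of all genes at this size is not given here. With a single array per group in the UGT1A3 pair, no difference between the knockdowns was tested.

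**Figure D5:**
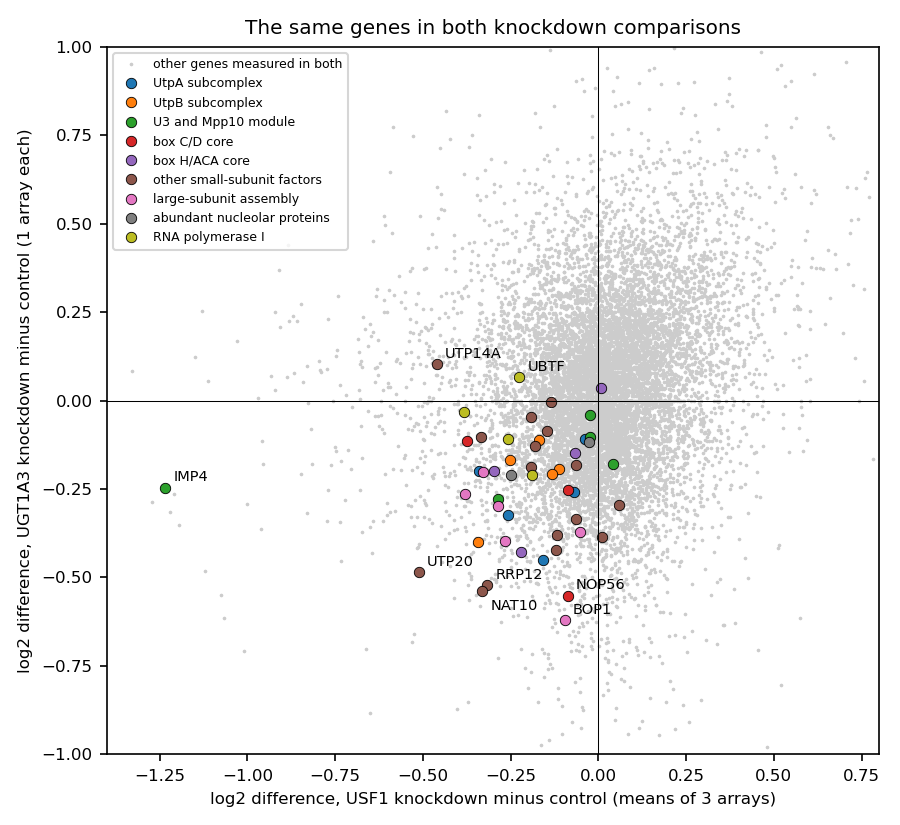
Log2 difference after USF1 knockdown (x axis, means of 3 arrays per group) and in the UGT1A3 pair (y axis, 1 array per group), each knockdown minus control. Coloured points are the 50 nucleolar factors by role, mostly below and left of 0, and grey points the other genes measured in both; 42 grey points lie outside the axes.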

How the data were processed

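Biotin-labelled total RNA of 8 samples was hybridised to 1-colour Affymetrix arrays. The authors deposited log2 intensities per probe set, a scale inferred here from their values. The submitters' processing notes list MAS5 with no role, and the sources used here do not give the scaling.

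After 102 control probe sets were left out, symbols came from the platform annotation, updated by Entrez number (44961 of 44988 matched). Each gene was represented by its brightest probe set, and genes below percentile 40 of the probe set means were dropped as dim (11448 genes kept in the USF1 arrays, 11620 in the UGT1A3 arrays). The USF1 arrays were fitted with limma 3.58.1 (lmFit, eBayes, R 4.3.3), two-sided, adjusted over all genes kept; a gene passed at 0.05. The UGT1A3 pair gave differences with no test. The SE is moderated; the median SD within groups was 0.05, and precision is limited by the number of arrays. The fit was also run on simulated data drawn independently for each gene, without correlation between genes, and the outcome is not given here.

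The genes and lists were chosen with earlier results of these data known. Arrays are given singly for up to 3 genes per role group with the smallest adjusted p and for genes 1.5-fold apart. Wider lists name up to 4 genes with the smallest adjusted p, except the E-box regulators, where every gene that passed is named. The printed promoters and the probe set examples were picked after values were seen. Alternatives covered normalization (quantile, median), the dim limit (none, percentile 60), 16 added units, averaged probe sets, a trended robust prior, a replicate block and omission of single USF1 arrays. Figures used matplotlib 3.10.9.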

Additional observations from a re-analysis of the deposited data

How the results depend on the processing

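Over all alternatives run, between 29 and 37 of the nucleolar factors fell after USF1 knockdown and none rose, and their median difference stayed between -0.19 and -0.18. Leaving out single USF1 arrays gave 29 to 32 genes, the lowest count without USF1 control 3, and 3644 to 4365 genes in all, against 4657 with every array. The call and direction held in every alternative for 37 of the 50 genes, 26 that fell and 11 that did not pass. UTP6 lost its call in 8 alternatives, WDR46 with no dim limit (adjusted p = 0.0585), and WDR43, KRR1 and PDCD11 without USF1 control 3 (limma adjusted p = 0.0532, 0.0546 and 0.0509). TBL3, NOP56, NOP58, NHP2, NOL6, BMS1 and BOP1 passed, downward, in at least 1 alternative. UBTF turned to 0.0744 (adjusted p = 0.14) when its probe sets were averaged, which takes in the 3 that pointed upward. In the UGT1A3 pair 46 to 48 genes were lower, the 48 with each gene read on its probe set of the USF1 arrays (added after seeing the data), and 1 was at least 1.5-fold apart in each alternative, with medians of -0.24 to -0.20. The replicate numbers showed no clear pairing of the samples, which was not tested. Correlations were -0.10, 0.20 and 0.09 between same-numbered arrays and -0.27 to 0.19 between the others. With 3 arrays per group, these values cannot show that pairing was absent. With the replicate numbers as a replicate block 31 factors fell, UTP6 being the call lost, and 4233 genes passed in all.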
